A study of Mus musculus with 18 samples.

Results

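The endothelial gene group was a list of 36 genes that mark the cells lining blood vessels or the sprouting of new vessels, and it was read in mouse thyroids on single-colour Agilent arrays. A gene entered through every non-control probe whose accession mapped to it. Of the 36 genes, 35 had a probe (47 probes in all) and 34 entered the fit, which covered 17928 genes. Tal1, a transcription factor of blood and vessel precursors, had no probe matched by accession. Plvap, which forms the diaphragms of capillary pores, was left out of the fit because its 1 spot carried an outlier flag on 1 array, and its values are given separately. The 34 genes were described in 5 role groups: 13 genes of cell junctions and the cell surface, 5 transcription factors, 6 secreted or signalling genes, 8 genes of tip cells, sprouting and Notch signalling, and 2 selectins.

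The arrays came from C57BL/6 mice aged 1 month. Wild-type (WT) mice and Glis3KO2 (KO2) mice, a mutant of Glis3, which encodes a zinc finger transcription factor, were compared on 2 diets. There were 5 WT and 5 KO2 thyroids on a normal diet (NIH31) and 4 WT and 4 KO2 thyroids after 6 days on a low-iodine diet (Harlan). The mice had been weaned at 3 weeks, and the labels give neither their sex nor which stretch of Glis3 the mutant lacks. The design text counts mice and its numbers match the arrays, so each array was taken as 1 mouse, and nothing in the labels ties a KO2 mouse to a WT mouse. The design asks which thyroid genes differ between the genotypes on each diet.

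Blood vessels of the thyroid form a basket of capillaries around each follicle. Their cells are held together by junction proteins such as VE-cadherin, and their identity is kept by transcription factors of the ETS and SOX families. A new vessel grows from a leading tip cell, which responds to vascular endothelial growth factor and presents the ligand Dll4 to Notch receptors on the cells that follow it as the stalk. Iodine shortage raises thyroid-stimulating hormone, and growth of the follicles and of their capillaries is known from the stimulated gland.

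Promoter sequences are shown for 4 genes. Eng and Unc5b had large differences between genotypes on the low-iodine diet. Rasip1 was lower in KO2 there and was picked because it holds an ETS match. Esm1 is a tip cell marker that did not pass the test. Each sequence runs 5′ to 3′ over 300 bases, from 250 before the start of the gene to 50 after it, from RefSeq on GRCm38.p6. Promoters of 19 of the 36 genes were matched. Capitals mark a match to CAGGAAG or CCGGAAG, letters bound by ETS factors, read on both strands, and the spellings cannot overlap as the same site.
Eng promoter, chr2:32646345-32646644, plus strand: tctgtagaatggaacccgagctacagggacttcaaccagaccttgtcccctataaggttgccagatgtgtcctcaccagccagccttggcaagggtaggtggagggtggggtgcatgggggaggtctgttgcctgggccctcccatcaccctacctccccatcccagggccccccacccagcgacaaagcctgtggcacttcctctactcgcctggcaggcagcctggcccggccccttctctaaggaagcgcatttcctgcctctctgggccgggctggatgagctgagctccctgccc
Unc5b promoter, chr10:60831532-60831831, minus strand: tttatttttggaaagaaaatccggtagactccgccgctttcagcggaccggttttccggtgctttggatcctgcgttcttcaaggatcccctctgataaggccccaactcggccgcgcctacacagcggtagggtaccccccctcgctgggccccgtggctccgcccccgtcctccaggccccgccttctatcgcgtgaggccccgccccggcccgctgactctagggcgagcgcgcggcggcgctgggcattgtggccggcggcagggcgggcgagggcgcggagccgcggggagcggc
Rasip1 promoter, chr7:45627287-45627586, plus strand: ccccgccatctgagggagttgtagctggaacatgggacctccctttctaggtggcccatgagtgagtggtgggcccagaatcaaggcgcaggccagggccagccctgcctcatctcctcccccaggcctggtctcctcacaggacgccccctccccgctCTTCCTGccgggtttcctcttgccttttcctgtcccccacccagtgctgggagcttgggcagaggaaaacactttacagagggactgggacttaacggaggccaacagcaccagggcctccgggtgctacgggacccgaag
Esm1 promoter, chr13:113209409-113209708, plus strand: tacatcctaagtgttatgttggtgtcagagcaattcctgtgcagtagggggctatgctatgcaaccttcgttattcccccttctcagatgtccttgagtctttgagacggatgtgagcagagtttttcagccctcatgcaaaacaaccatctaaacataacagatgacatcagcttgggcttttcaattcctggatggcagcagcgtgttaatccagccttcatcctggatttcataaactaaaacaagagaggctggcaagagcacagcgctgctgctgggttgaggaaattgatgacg
Of these 4 promoters, the Rasip1 one held a match. Among all 19 promoters, 6 held at least 1 match (Emcn, Robo4, Egfl7, Rasip1, Notch4 and Sele). Over 27025 gene promoters of the same length, 20.9% did. Of these 6 genes, Rasip1 alone passed the test on the low-iodine diet. ACAATNG, letters bound by SOX factors and searched on both strands, was found in 2 of the 19 (Robo4 and Clec14a) and in 8.19% of all promoters. These matches describe letters in the window and say nothing about binding.

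The tissue held endothelial transcripts in every group. Cdh5, Pecam1, Tie1, Kdr and Emcn were well above background on all 18 arrays, and so were 31 of the 34 genes. Sele was not well above background on any normal-diet array, Erg was so on 2 of 5 KO2 normal-diet arrays, and Cxcr4 on 4 of these 5. Array correlations ran from 0.944 to 0.988 within a group and from 0.73 to 0.83 between diets. The scanner was a G2505C for the normal diet and a G2600D for low iodine, with no slide in common, so the diets and the array sets cannot be told apart, and the comparisons between genotypes were made within a diet. Each slide held both genotypes in equal number. Glis3 itself was read by 1 probe, with levels from −6.08 to −4.79 in WT and from −5.46 to −4.16 in KO2 on the normal diet, and from −1.6 to −0.74 and from −4.06 to −1.49 on low iodine. The arrays of both genotypes overlapped on each diet (adjusted p = 0.732 and 0.0619 in limma), and since the missing stretch is not given, this probe does not check the labels.

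Levels are log2 of the processed signal minus the 75th percentile of the array, so a level of 0 is the 75th percentile of that array. Differences are KO2 minus WT on this log2 scale with the standard error (SE) of the limma fit. A gene passed the test at an adjusted p under 0.05 (Benjamini-Hochberg over all 17928 genes). A gene that fell or rose passed as lower or higher in KO2 than in WT on the same diet. These words do not describe a change with the diet. On the normal diet 0 of the 34 genes passed, where 1.39% of all genes did. At an unadjusted p under 0.05, 1 gene was higher (Sox17) and 1 lower (Icam2). The median difference was −0.03, against 0.05 for all genes, and no gene had arrays of KO2 and WT that stood apart.

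On the low-iodine diet endothelial genes were lower in KO2. Of the 34 genes, 13 fell and 0 rose, where 7.18% of all genes fell and 7.81% rose, and the remaining 21 did not pass. The median difference was −0.63, against −0.02 for all genes. The genes that fell were Eng, Icam2, Cdh5, Pecam1, S1pr1, Clec14a and Esam at the cell surface, the transcription factor Ets1, the signalling genes Nos3, Ramp2 and Rasip1, and Unc5b and Hey1 among the tip cell and Notch genes. Their folds ran from 1.49 (Hey1) to 4.49 (Unc5b). All 13 had every KO2 array below every WT array, and so were necessarily lower in KO2 on both low-iodine slides. All 13 were well above background on all 18 arrays. Over the 34 genes, 16 had every KO2 array below every WT array, where 9.10% of all genes did, and 1 (Cldn5) had every KO2 array above. In whole tissue, fewer endothelial cells and less RNA per cell cannot be told apart.

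**Figure D1:**
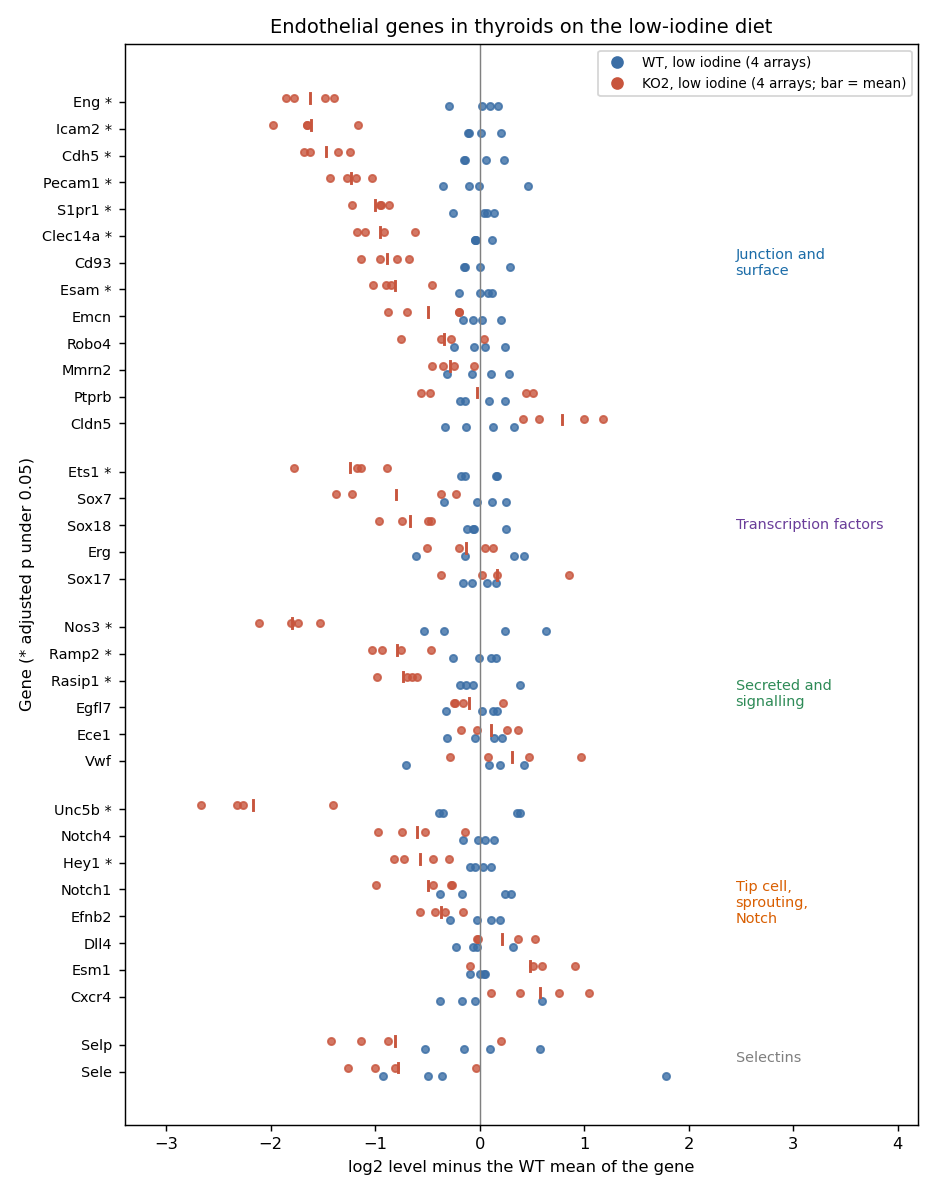
Level of each endothelial gene on the 8 low-iodine arrays, drawn as log2 level minus the WT mean of that gene, by role group; blue points are 4 WT arrays, red points 4 KO2 arrays and red bars the KO2 mean. The 13 genes with an asterisk passed the test, and in each of them the red points lie left of all blue points.

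Junction and surface genes held the largest share of calls, 7 of 13 (53.8%), where 7.18% of all genes fell. Eng encodes endoglin, a co-receptor for ligands of the TGF-beta family. On the low-iodine diet its levels in WT were 1.10, 0.63, 0.95 and 1.02, and in KO2 −0.93, −0.55, −0.47 and −0.85. The WT arrays thus lay above the 75th percentile of their array and the KO2 arrays below it. The difference was −1.63 ± 0.22 (SE, n = 4 and 4; limma adjusted p = 1.16e-04), a 3.09-fold fall. On the normal diet the WT arrays of Eng read 0.99, 1.41, 1.52, 1.40 and 0.87 and the KO2 arrays 0.98, 1.58, 1.69, 0.87 and 0.89, which overlapped throughout.

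Cdh5 encodes VE-cadherin, the adhesion protein of endothelial junctions. Its low-iodine levels were 3.88, 3.51, 3.52 and 3.71 in WT and 2.30, 2.03, 1.98 and 2.41 in KO2. The gap between the lowest WT array and the highest KO2 array was wider than the spread within either group, and the difference was −1.47 ± 0.23 (SE, n = 4 and 4; limma adjusted p = 4.97e-04). A second Cdh5 probe gave a difference of −2.04. The normal-diet levels ran from 0.34 to 1.29 in the 5 WT arrays and from 0.36 to 1.34 in the 5 KO2 arrays, with a difference of 0.04 ± 0.21 (SE).

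Icam2, an adhesion molecule for leukocytes that is present on resting endothelium, read 1.07, 1.20, 1.09 and 1.39 in WT and 0.02, −0.79, −0.47 and −0.46 in KO2 on the low-iodine diet. The groups did not overlap, and the difference was −1.61 ± 0.27 (SE, n = 4 and 4; limma adjusted p = 7.86e-04). Its normal-diet difference was −0.55 ± 0.24 (SE), with overlapping arrays and an adjusted p of 0.332 in limma. S1pr1, the receptor for sphingosine-1-phosphate that steadies endothelial junctions, read 1.87, 1.90, 1.57 and 1.97 in WT and 0.88, 0.96, 0.61 and 0.87 in KO2. The fall was 2.0-fold (−1.0 ± 0.23, SE, n = 4 and 4; limma adjusted p = 0.00745), at −1.01 and −0.99 on the separate slides.

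Pecam1, an adhesion protein found at contacts between endothelial cells, fell by 1.23 ± 0.31 on the log2 scale, from 0.53 ± 0.34 (SD, n = 4) to −0.70 ± 0.17 (SD, n = 4). Clec14a, a surface lectin that binds the matrix protein encoded by Mmrn2, fell by 0.95 ± 0.26, and Esam, an adhesion molecule of tight junctions, fell by 0.81 ± 0.24. The call for Esam did not survive 7 of 30 alternative settings. Clec14a had a second, much dimmer probe, whose difference of −0.84 did not pass (adjusted p = 0.198 in limma).

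Among the surface genes that did not pass, Cd93, another receptor for the Mmrn2 protein, had a difference of −0.89 ± 0.30 (SE; limma adjusted p = 0.0581) with arrays that did not overlap, and its second probe passed (−1.41, adjusted p = 0.0033 in limma). Emcn, the sialomucin of capillaries and veins, also had arrays that did not overlap, at −0.49 ± 0.29 (SE; limma adjusted p = 0.299). Robo4, a guidance receptor that limits leak, was at −0.34, Mmrn2 at −0.28 and the phosphatase gene Ptprb, whose product acts on VE-cadherin, at −0.02, all with overlapping arrays. Plvap, whose flagged spot was on a KO2 normal-diet array, had a WT mean of 3.63 ± 0.07 (SD, n = 4) against a KO2 mean of 3.00 ± 0.08 (SD, n = 4). Its low-iodine arrays did not overlap, from 3.56 to 3.71 in WT and from 2.91 to 3.06 in KO2. With the flagged spot kept in the fit, its difference of −0.63 ± 0.26 (SE) had an adjusted p of 0.125 in limma. Cldn5, the claudin of endothelial tight junctions, went the other way, from a WT mean of −1.39 ± 0.29 (SD, n = 4) up to −0.60 ± 0.36 (SD, n = 4). Its difference of 0.79 ± 0.27 (SE) had an adjusted p of 0.0550 in limma and passed in 5 of 30 alternative settings.

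Of 5 transcription factors, 1 fell, where 7.18% of all genes did. Ets1, an ETS factor active in angiogenesis and also present in lymphocytes, read 0.11, 0.07, 0.41 and 0.41 in WT and −1.52, −0.93, −0.89 and −0.64 in KO2 on the low-iodine diet. The groups stood apart by −1.25 ± 0.27 (SE, n = 4 and 4; limma adjusted p = 0.0056), and its other probes gave −1.04 and −0.74. Sox7, Sox17 and Sox18 are the SOX factors of endothelium. Sox7 read 1.22, 0.94, 0.63 and 1.09 in WT and 0.74, −0.25, −0.40 and 0.60 in KO2, so that 1 of the 4 KO2 arrays lay in the WT range (−0.80 ± 0.29, SE; limma adjusted p = 0.0773). Sox18 read 1.13, 1.20, 1.5 and 1.19 in WT and 0.78, 0.51, 0.76 and 0.29 in KO2, without overlap, at −0.67 ± 0.29 (SE; limma adjusted p = 0.133).

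Sox17 had its difference on the other diet. On the normal diet it read −1.46, −1.0, −0.72, −0.81 and −1.19 in WT and −0.21, −0.13, 0.55, −0.94 and 0.41 in KO2. Of the 5 KO2 arrays, 4 lay above all WT arrays and replicate 4 lay among them, and the difference was 0.97 ± 0.26 (SE; limma adjusted p = 0.0842). Without that replicate Sox17 passed (adjusted p = 0.00938 in limma). On the low-iodine diet it read 1.13, 1.05, 0.81 and 0.90 in WT and 1.82, 0.99, 0.60 and 1.14 in KO2, which overlapped (0.17 ± 0.30, SE). Erg, an ETS factor of mature endothelium, was at −0.13 ± 0.38 (SE) on the low-iodine diet.

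Of 6 secreted and signalling genes, 3 fell, where 7.18% of all genes did. Nos3 encodes the endothelial nitric oxide synthase, which relaxes vessels. It read −2.17, −1.20, −2.37 and −1.59 in WT and −3.64, −3.36, −3.95 and −3.57 in KO2 on the low-iodine diet, with every KO2 array below every WT array. The difference was −1.80 ± 0.29 (SE, n = 4 and 4; limma adjusted p = 6.09e-04), a 3.47-fold fall. With normexp background correction the Nos3 difference shrank to −0.99 (limma adjusted p = 0.00321). Rasip1, a regulator of junctions and lumen formation, read 0.85, 0.73, 0.79 and 1.30 in WT and −0.06, 0.32, 0.27 and 0.22 in KO2 (−0.73 ± 0.21, SE; limma adjusted p = 0.0277). Ramp2, the partner of the adrenomedullin receptor, read 1.36, 1.25, 1.0 and 1.41 in WT and 0.50, 0.23, 0.32 and 0.79 in KO2 (−0.80 ± 0.23, SE; limma adjusted p = 0.0298). Neither group pair overlapped. The calls for Rasip1 and Ramp2 did not survive 5 and 7 of 30 alternative settings.

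The remaining members of that group showed no such gap. Vwf, the clotting protein stored by endothelial cells, read 0.44, −0.45, 0.34 and 0.67 in WT and 0.72, 0.33, −0.04 and 1.22 in KO2. Its arrays overlapped at 0.31 ± 0.30 (SE; limma adjusted p = 0.578), and a second Vwf probe pointed the other way, at −0.58 (limma adjusted p = 0.140). Egfl7, a secreted endothelial protein, was at −0.10 ± 0.24 (SE). Ece1, which processes endothelin and is made by many cell types, was at 0.10 ± 0.15 (SE).

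Tip cell, sprouting and Notch genes gave 2 calls among 8 (25%), where 7.18% of all genes fell. The junction, transcription factor and signalling genes, called the pan-endothelial genes here, together gave 11 of 24 (45.8%). The difference between these shares was not tested. Of the 2 calls, that of Hey1 was lost in 22 of 30 alternative settings. Unc5b, a netrin receptor of tip cells, had the widest difference of the 34 genes in the main setting. It read −2.31, −1.58, −2.34 and −1.6 in WT and −4.23, −3.36, −4.28 and −4.63 in KO2 on the low-iodine diet. Every KO2 array was below every WT array, and the difference was −2.17 ± 0.33 (SE, n = 4 and 4; limma adjusted p = 3.40e-04). With normexp background correction it shrank to −1.03 (limma adjusted p = 0.00297), and Icam2 then had the widest difference, at −1.45. The normal-diet WT arrays ran from −1.78 to −0.59 and the KO2 arrays from −2.60 to −1.45, which overlapped (−0.61 ± 0.29, SE; limma adjusted p = 0.384).

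Hey1, a repressor switched on by Notch, read 3.50, 3.35, 3.43 and 3.31 in WT and 3.11, 2.58, 2.67 and 2.95 in KO2. The groups did not overlap, and the difference of −0.57 ± 0.19 (SE) passed narrowly (limma adjusted p = 0.0495). The call was lost in 22 of 30 alternative settings. The Notch receptors did not pass. Notch4, the receptor largely restricted to endothelium, read 0.97, 1.18, 1.11 and 1.26 in WT and 0.99, 0.39, 0.15 and 0.61 in KO2, where 1 KO2 array reached the WT range (−0.60 ± 0.22, SE; limma adjusted p = 0.0819). Notch1, which many cell types make, read 0.39, −0.28, −0.07 and 0.33 in WT and −0.18, −0.90, −0.36 and −0.18 in KO2 (−0.50 ± 0.25, SE; limma adjusted p = 0.202).

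Esm1, Dll4 and Cxcr4, which are widely used as markers of tip cells, did not pass the test. Esm1, the secreted proteoglycan endocan, read 3.79, 3.65, 3.75 and 3.79 in WT and 4.34, 3.65, 4.26 and 4.66 in KO2, so 3 of the 4 KO2 arrays were above all WT arrays (0.48 ± 0.34, SE; limma adjusted p = 0.406). Dll4, the Notch ligand of tip cells, read −0.91, −0.57, −1.12 and −0.94 in WT and −0.91, −0.52, −0.36 and −0.90 in KO2 (0.22 ± 0.28, SE; limma adjusted p = 0.691). Cxcr4, the receptor for Cxcl12 on tip cells and leukocytes, was at 0.58 ± 0.45 (SE) on its brighter probe and at −0.02 on the other, and Efnb2, the arterial ligand of Ephb4, was at −0.37 ± 0.21 (SE). The per-array values of Esm1 and Dll4 are given because these genes define the tip cell state, a choice made after their values were seen.

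**Figure D2:**
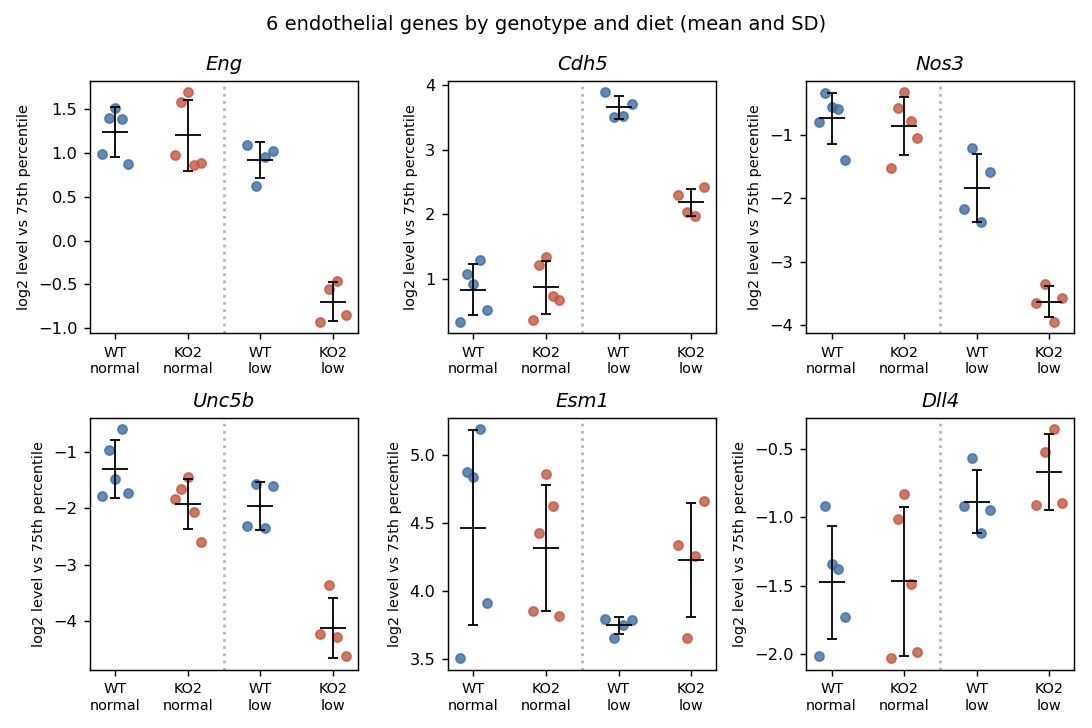
Log2 levels of Eng, Cdh5, Nos3, Unc5b, Esm1 and Dll4 on each array of the 4 groups (5, 5, 4 and 4 arrays; blue WT, red KO2), with horizontal bars for the mean and vertical bars for the SD; a dotted line divides the diets, which were run as separate array sets. In Eng, Cdh5, Nos3 and Unc5b the KO2 low-iodine points lie below all WT low-iodine points, and in Esm1 and Dll4 they do not.

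Averaged over the 24 pan-endothelial genes, the level on the low-iodine diet was 1.5 ± 0.12 (SD, n = 4) among WT arrays, from 1.42 to 1.67, and 0.85 ± 0.14 (SD, n = 4) in KO2, from 0.71 to 0.98. Over the 8 tip cell and Notch genes it was 1.01 ± 0.10 (SD, n = 4) in WT, from 0.91 to 1.11, and 0.65 ± 0.07 (SD, n = 4) in KO2, from 0.55 to 0.73. In these means both sets of KO2 arrays lay below the WT arrays, by −0.65 and −0.37. The shift of the 8 tip cell and Notch genes rests largely on Unc5b, at −2.17. Of these 8 genes 5 had a difference below 0 and 3 above, with a median of −0.43. Of the 24 pan-endothelial genes 20 were below 0 and 4 above, with a median of −0.76. The difference between the shifts in mean level was not tested. The corresponding normal-diet differences in mean level were 0.00 and −0.15, with overlapping arrays.

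**Figure D3:**
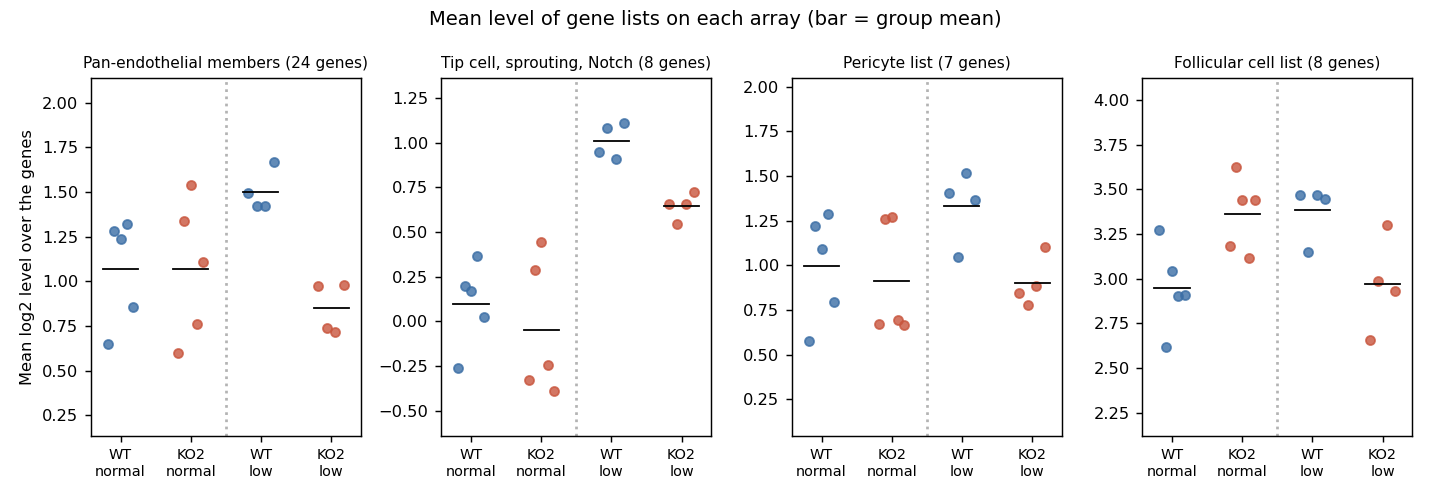
Mean log2 level over the genes of a list on each of the 18 arrays, for 24 pan-endothelial genes, 8 tip cell and Notch genes, 7 pericyte genes and 8 follicular cell genes (blue WT, red KO2, bars for group means; each vertical axis spans 2 log2 units). On the low-iodine diet the KO2 points of the first 2 lists lie below all WT points, and on the normal diet the genotypes overlap in them.

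The selectins carry leukocytes along activated endothelium and neither passed. Selp read −3.47, −2.99, −4.10 and −3.73 in WT and −4.99, −4.71, −3.36 and −4.44 in KO2 on the low-iodine diet, with 1 KO2 array in the WT range (−0.81 ± 0.37, SE; limma adjusted p = 0.162). Sele read −4.26, −2.11, −4.82 and −4.39 in WT and −3.94, −4.90, −5.16 and −4.71 in KO2, which overlapped (−0.78 ± 0.52, SE; limma adjusted p = 0.382). No fold is given for Sele on the normal diet, where it was not well above background.

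Whether the genotype difference itself differed between the diets was tested as an interaction. Of the 34 genes, 3 passed, all with a lower KO2 level on the low-iodine diet, where 0.865% of all genes did so. Cdh5 had an interaction of −1.51 ± 0.31 (SE; limma adjusted p = 0.0261), Eng of −1.59 ± 0.29 (SE; limma adjusted p = 0.0131) and Nos3 of −1.68 ± 0.39 (SE; limma adjusted p = 0.0461). On the normal diet these genes differed by 0.04, −0.04 and −0.12, and Nos3 read −0.80, −0.35, −0.57, −0.59 and −1.40 in WT and −1.52, −0.59, −0.34, −0.78 and −1.06 in KO2 there. The Nos3 call was lost in 19 of 29 alternative settings, and its value was −0.92 with normexp background correction. The Cdh5 call was lost in 4 and the Eng call in 1. Unc5b had an interaction of −1.55 ± 0.44 (SE), which did not pass (limma adjusted p = 0.0960), and for the other genes that fell on the low-iodine diet it was not shown that the diets differ. The median interaction was −0.73 over the 34 genes and −0.04 over all genes.

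**Figure D4:**
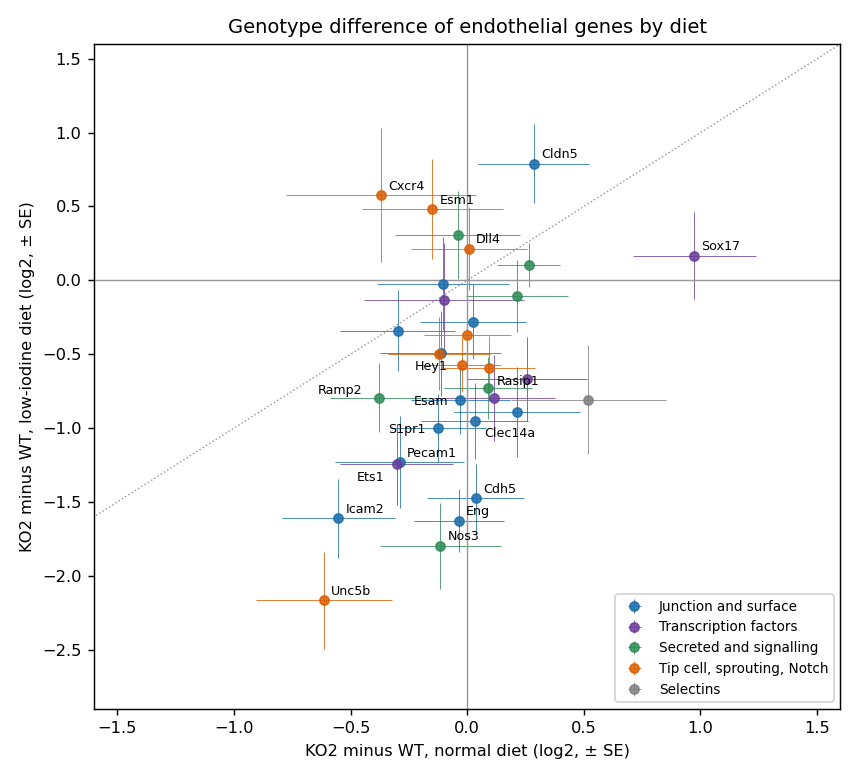
Difference between genotypes (KO2 minus WT, log2) of 33 endothelial genes on the normal diet (horizontal) and on the low-iodine diet (vertical), coloured by role group, with SE bars; Sele is left out because it was not above background on the normal diet, and the dotted line marks equal differences. Eng, Cdh5 and Nos3 lie close to 0 on the horizontal axis and at −1.63, −1.47 and −1.80 on the vertical axis.

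Across the 18 arrays, endothelial genes also varied together within the groups. After each group mean was subtracted, the median correlation of a gene with the mean of the other members was 0.64, and that of all genes with the members' mean was 0.07. These are descriptions over arrays that share their RNA preparation and scaling. Cdh5 (0.92), Cd93 (0.92), Robo4 (0.92) and S1pr1 (0.92) were highest, Esm1 (0.75) and Dll4 (0.72) followed the rest, and Selp (0.29), Ece1 (0.15) and Notch1 (−0.07) were lowest. Unc5b stood at 0.44. The mean level of the 34 genes spanned 0.06 to 0.71 in WT and 0.08 to 0.94 in KO2 on the normal diet, wider than the spans of 0.95 to 1.20 and 0.37 to 0.59 on the low-iodine diet.

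Most genes of a list of 48 further endothelial genes went the same way, with 39 below 0 and 9 above on the low-iodine diet. This list was chosen with earlier results of these data known, so it is not independent of them. In the test on the low-iodine diet 25 fell and 0 rose, where 7.18% of all genes fell and 7.81% rose. The median of the list was −0.66, and on the normal diet 0 passed (3 higher and 3 lower at an unadjusted p under 0.05). Cd109, a surface protein that binds TGF-beta, read −0.98, −0.75, −1.28 and −0.70 in WT and −3.90, −5.42, −3.67 and −2.52 in KO2 (−2.95 ± 0.41, SE; limma adjusted p = 1.58e-04). Tek, the receptor for angiopoietins, read 0.58, 1.14, 0.70 and 0.86 in WT and −0.73, −0.42, −0.49 and −0.41 in KO2 (−1.33 ± 0.20, SE; limma adjusted p = 2.74e-04). She, an adaptor gene of endothelium, fell by 1.46 ± 0.22 and Ltbp4, a matrix protein that binds latent TGF-beta, by 1.43 ± 0.23 on the log2 scale. None of these 4 genes had overlapping arrays. The vascular endothelial growth factor receptors Kdr (−0.32 ± 0.26, SE) and Flt1 (0.06 ± 0.26, SE), named after their values were seen, did not pass.

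Among 35 further tip cell and sprouting genes, likewise chosen with earlier results known, 12 fell and 2 rose on the low-iodine diet. Over all genes 7.18% fell and 7.81% rose. The median of the 35 genes was −0.45, and 0 of them passed on the normal diet (2 higher and 2 lower at an unadjusted p under 0.05). Nid2, a basement membrane protein, read 2.79, 2.39, 2.64 and 2.91 in WT and −0.02, 0.29, 0.02 and 0.31 in KO2 (−2.53 ± 0.19, SE; limma adjusted p = 1.55e-06). Apln, the tip cell peptide apelin, read 1.38, 0.41, 1.20 and 1.51 in WT and −1.68, −2.59, −1.38 and −1.29 in KO2 (−2.86 ± 0.31, SE; limma adjusted p = 2.52e-05). Both genes were far apart between the genotypes, with no overlap. Plaur, the urokinase receptor, fell by 2.23 ± 0.27 and Itga5, an integrin chain for fibronectin, by 1.68 ± 0.22 on the log2 scale. These 4 genes also passed in the interaction. The 2 genes that rose were Rgcc (0.94 ± 0.20, SE; limma adjusted p = 0.00458) and Adm, which encodes adrenomedullin (0.72 ± 0.24, SE; limma adjusted p = 0.0491). Several of these genes, such as Nid2, Plaur and Itga5, are made by other cells of the gland as well.

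**Figure D5:**
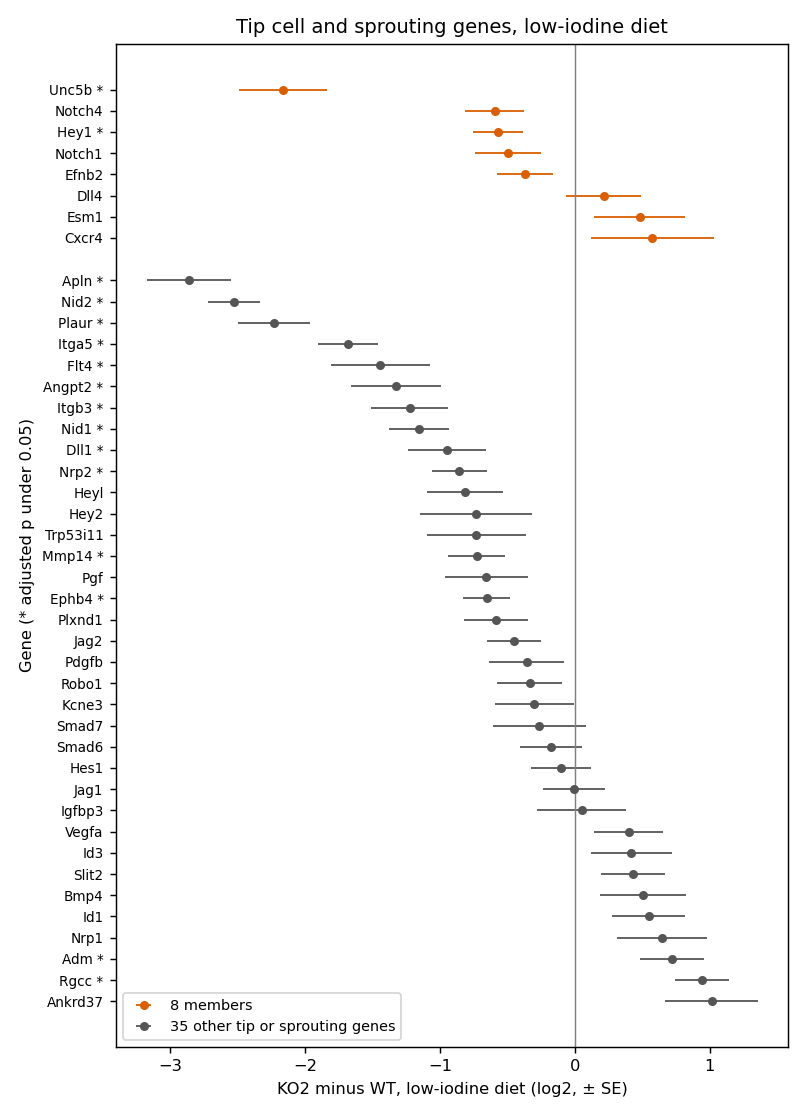
Difference between genotypes on the low-iodine diet (KO2 minus WT, log2, points with SE bars) for the 8 tip cell, sprouting and Notch members (orange) and 35 further genes of sprouting (grey), 4 WT and 4 KO2 arrays. Apln, Nid2 and Plaur lie left of −2 together with Unc5b, and Esm1, Dll4 and Cxcr4 lie right of 0.

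Markers of other cells moved as well on the low-iodine diet, where 7.18% of all genes fell and 7.81% rose. The part of these markers in the endothelial result was not tested. Of 7 pericyte genes 2 fell (Cspg4 and Rgs5), and the mean level of the list ran from 1.05 to 1.51 in WT and from 0.78 to 1.10 in KO2. Of 6 smooth muscle genes 2 fell, with mean levels from 1.83 to 2.0 and from 0.88 to 1.36. Of 8 fibroblast genes 3 collagen genes fell and Dcn rose, with mean levels from 1.64 to 2.16 and from −0.03 to 0.83. The same 3 collagen genes fell on the normal diet, where the endothelial genes did not pass. Of 8 follicular cell genes 2 fell and 1 rose, and their mean level ran from 3.15 to 3.47 in WT and from 2.66 to 3.30 in KO2. The steepest fall among them was that of Slc5a5, the iodide transporter (−3.92 ± 0.43, SE; limma adjusted p = 2.68e-05). All 10 cell division genes fell, with mean levels from 0.83 to 1.33 in WT and from −3.69 to −3.54 in KO2, and 8 of them fell on the normal diet too.

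Lists of related vessels held calls as well, where 7.18% of all genes fell and 7.81% rose on the low-iodine diet. The KO2 minus WT difference in mean level was −0.57 for the lymphatic list and −0.58 for the venular list, without overlapping arrays. It was −0.59 for the 34 endothelial genes. Of 6 lymphatic genes Mmrn1 rose and Pdpn fell, with mean levels from −1.99 to −1.26 in WT and from −2.29 to −2.11 in KO2, and Mmrn1 rose on the normal diet as well. Of 7 venular and inflamed endothelium genes 2 fell, Ackr1 and Ephb4, which is also in the list of sprouting genes (mean levels −0.02 to 0.37 and −0.66 to −0.38). Among blood cells, 1 of 8 macrophage genes (Itgam; −1.17 to −0.70 and −1.72 to −1.10) and 1 of 5 red cell genes (Slc4a1; 0.66 to 1.61 and 0.09 to 0.86) fell, and 0 of 8 leukocyte genes (−2.27 to −1.44 and −2.26 to −2.15) and 0 of 6 platelet genes (−2.30 to −1.58 and −2.67 to −1.87) passed. At an unadjusted p under 0.05, 2 leukocyte genes and 1 platelet gene were lower. Of 6 C cell genes 3 rose (1.25 to 1.56 and 1.92 to 2.29). The parathyroid (1.31 to 1.78 and −0.60 to 1.86), thymic epithelium (−2.88 to −1.78 and −2.72 to −1.99), skeletal muscle (−2.48 to 2.90 and −2.81 to 1.88) and fat lists (0.93 to 1.71 and 1.45 to 1.87) had 0 genes past the test in limma, with 2 fat genes higher and none of the others lower or higher at an unadjusted p under 0.05. The filter required each gene of these lists in the fit to be well above background on at least 4 of 18 arrays.

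Between the diets, 26 of the 34 genes passed in WT (14 higher and 12 lower on low iodine) and 31 in KO2 (15 and 16), where 75.9% and 74.4% of all genes passed. The WT count is near that share and the KO2 count above it, a difference that was not tested. The direction was mixed within the group. In WT, Clec14a differed by 4.33, Cdh5 by 2.83 and Pecam1 by 2.36, and Mmrn2 by −2.59, Cldn5 by −2.23 and Ramp2 by −1.98 (log2, low iodine minus normal). Scaled on the median of each array, the split was 13 higher and 18 lower in WT and 6 and 19 in KO2. The array set, which changed with the diet, cannot be told apart from it in these values.

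The count on the low-iodine diet moved with the scaling of the arrays. With median scaling the count of endothelial genes that fell was 7, and all genes moved by 0.126 at the median against −0.02 in the main scaling. Without any scaling the count was 14, and over all genes 255 rose and 1637 fell in place of 1400 and 1287. Relative to the median of all genes, the median difference of the 34 genes was −0.61 in each of these scalings. They shift all genes of an array by the same amount, so this relative value could not differ between them. Over all 30 alternative settings it lay between −0.74 (quantile normalization) and −0.41 (normexp background correction). Several of the 30, such as those that left out a normal-diet array, could not move it either. WT low-iodine replicate 2 had a median signal of 191.5 before scaling, against 61.6 to 85.5 on the other low-iodine arrays. Among the WT low-iodine arrays, the dim genes Sele and Nos3 read highest on it. Without this array 10 of the 34 genes fell, and all genes moved by 0.113 at the median.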

How the data were processed

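Thyroid RNA from 18 mice was read on single-colour (Cy3) Agilent arrays. Per the labels' protocols, 50 ng of total RNA was amplified with the NuGEN Ovation Pico system and 5 ug of cDNA was labelled. The deposited intensity of each spot is Agilent's processed signal, from Feature Extraction version 12 per the submitters' processing notes. The deposited summary table held the same intensity values (ratio 1 to 1 on every array). Other deposited columns used are flags (well above background, outlier, saturated; 0 spots were saturated).

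Control spots and spots flagged as feature outliers were removed, log2 of the signal was centred on the 75th percentile of each array, and spots of a probe were averaged. Of 41174 probes, 28223 matched 1 gene by RefSeq accession (GRCm38.p6 table), 0 several and 12951 none. Probes flagged on every spot of an array (82) were left out. A probe was kept if well above background on at least 4 of 18 arrays, and the brightest probe stood for its gene, which left 17928 genes. Between 60.1 and 90.6 percent of features were above background per array, and the number of arrays limits the precision.

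Models of 4 group means were fitted with limma 3.58.1 in R 4.3.3, with Benjamini-Hochberg adjustment over all genes, and the pipeline was tested on simulated data. The alternatives changed background correction, scaling, filters, probe choice, slide or replicate block and the arrays included. The planned mean signal for normexp was not used here, and the median signal took its place. Members and lists were chosen with earlier results of these data known. All members are named. Per-array values are given for up to 4 genes per role group with the smallest low-iodine p, and for Esm1 and Dll4. In each wider endothelial list 4 genes were named by the same rule, with per-array values for Cd109, Tek, Nid2 and Apln. At most 3 genes of each other list are named.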

Additional observations from a re-analysis of the deposited data

Results flagged for a closer look

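Of 136 combinations of a gene and a group, 3 held an array far from the others by Dixon's criterion at 95%, which flags about 1 in 20 groups by chance. Clec14a read 2.79 in WT low-iodine replicate 1, Hey1 read 2.01 in WT normal-diet replicate 3, and Selp read −2.93 in KO2 normal-diet replicate 5.

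The difference between genotypes differed between the diets in the limma interaction for Cdh5 (−1.51), Eng (−1.59) and Nos3 (−1.68), each lower in KO2 on the low-iodine diet. In all 3 genes every low-iodine KO2 array lay below every low-iodine WT array, and the normal-diet arrays overlapped. The diets were run as separate array sets, and these cannot be told apart here.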

How the results depend on the processing

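Over 30 alternative settings the count of endothelial genes that fell on the low-iodine diet was between 7 (median scaling) and 16 (quantile normalization, where Cldn5 also rose), against 13, and no called gene changed direction. Settings that left out a normal-diet array or added a block left the low-iodine differences as they were. In those settings the direction could not change, and only the standard errors and p-values could move. With normexp background correction the low-iodine differences of Unc5b and Nos3 shrank to −1.03 and −0.99 and the Nos3 interaction to −0.92. These alternatives were run for the 34 genes, not for the genes of the other lists. The calls of Cdh5, Eng, Icam2, S1pr1, Ets1, Nos3 and Unc5b held in all 30. The interaction count of 3 became 6 with quantile normalization and 0 with median scaling (0 higher and 7 lower at an unadjusted p under 0.05 in limma). Leaving out 1 array at a time gave 0 to 1 calls on the normal diet (Sox17, without KO2 normal-diet replicate 4), 9 to 14 on the low-iodine diet (either direction), 1 to 3 in the interaction, 24 to 28 between diets in WT and 31 to 33 in KO2. The interaction count was 1 without KO2 normal-diet replicate 2, WT low-iodine replicate 1 or WT low-iodine replicate 4. The cause of these changes was not tested. The labels do not pair mice by replicate number, and correlations of same-numbered arrays, after group means were subtracted, ran from −0.04 to 0.32. WT low-iodine replicates 1, 2 and 4 and WT normal-diet replicate 5 correlated best with the KO2 array of their own number, and the others did not. With the replicate number as a block the counts were 0 on the normal diet, 14 on low iodine (1 higher and 13 lower), 3 in the interaction, and 28 and 31 between diets. Among genes that passed in neither setting, 111 estimates changed sign, 16 of them on the low-iodine diet. Over all genes, the normal-diet calls were 3 when only those arrays were fitted, against 249, and the low-iodine calls were 1642 with median scaling, against 2687.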
